A study of Mus musculus with 6 samples.

Results

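The fibrillar collagens are the chains that build the banded collagen fibrils of connective tissue. The 10 genes described here, Col1a1, Col1a2, Col3a1, Col5a1, Col5a2, Col5a3, Col11a1, Col11a2, Col24a1 and Col27a1, were taken by name as fibril-forming chains, without a threshold on any measured value. The choice was made with earlier results of these data known. All 10 were found among the 27179 genes of the count table, and all 10 passed the filter on low counts, with between 22 counts (Col24a1, a CD34hi library) and 2459796 counts (Col3a1, a CD34lo library) in a single library. They were compared between CD34hi and CD34lo fibroblasts of the pubertal mammary gland, both as single genes and as ratios between chains in the same library.

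RNA was sequenced in bulk from fibroblasts that had been sorted from the mammary glands of 6-week-old FVB/N mice (FVB/NJ in the study's methods) as Lin-CD24-Pdgfrα+ cells, that is, cells without lineage markers and without CD24, with the platelet-derived growth factor receptor alpha. The CD34hi group is the fraction of these cells with a high surface level of CD34, a sialomucin of progenitor cells, and the CD34lo group is the fraction with a low level. Each of 3 pools of 2 mice gave 1 library of each fraction, which makes 3 libraries per group and 6 in all, so that same-numbered libraries share their mice. No genotype, transgene or treatment is given for either group. An average over 2 pooled mice cannot be split into animals, and in bulk RNA fewer cells of a type and less RNA per cell cannot be told apart.

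Each fibrillar collagen chain is made as a procollagen with end domains around a long helical stretch in which glycine returns at a fixed step. Chains fold together in the endoplasmic reticulum, are secreted, lose their end domains to proteases, assemble into fibrils and are then crosslinked. Types I and III make up most of the fibril mass in soft tissue, types V and XI start fibrils and set their diameter, and types XXIV and XXVII are minor members, known mainly from developing bone and cartilage.

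The repeat that defines the family can be read in the coding sequence, and 1 exon of each gene is shown for that reason. For each gene it is the first exon of 54 bases that lies wholly inside the longest run of units with a glycine codon (GGN) in the same frame. Its length of 54 bases, or 6 repeat units of 9 bases, and its 6 glycine codons thus follow from that choice. The capitals mark the glycine codon that opens each of the 6 units. Further GGN codons inside a unit are left in lower case. Coordinates are those of GRCm38, the sequence is that of the protein-coding transcript with the longest coding sequence in GENCODE release M21, and each exon is coding over its whole length.
Col1a1, exon 8, chr11:94939904-94939957, plus strand: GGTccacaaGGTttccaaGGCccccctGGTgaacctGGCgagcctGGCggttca
Col1a2, exon 8, chr6:4515481-4515534, plus strand: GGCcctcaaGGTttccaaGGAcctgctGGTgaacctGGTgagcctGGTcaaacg
Col3a1, exon 6, chr1:45325360-45325413, plus strand: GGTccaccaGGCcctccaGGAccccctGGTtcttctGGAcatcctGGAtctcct
Col5a1, exon 15, chr2:27965251-27965304, plus strand: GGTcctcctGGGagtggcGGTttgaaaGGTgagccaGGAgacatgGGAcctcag
Col5a2, exon 10, chr1:45422386-45422439, minus strand: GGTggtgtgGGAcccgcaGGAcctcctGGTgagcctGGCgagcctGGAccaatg
Col5a3, exon 15, chr9:20801068-20801121, minus strand: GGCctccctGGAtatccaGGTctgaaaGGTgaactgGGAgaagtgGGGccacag
Col11a1, exon 15, chr3:114108281-114108334, plus strand: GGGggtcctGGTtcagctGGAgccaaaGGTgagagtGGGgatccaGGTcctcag
Col11a2, exon 15, chr17:34051480-34051533, plus strand: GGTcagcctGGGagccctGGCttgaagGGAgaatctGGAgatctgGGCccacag
Col24a1, exon 7, chr3:145328731-145328784, plus strand: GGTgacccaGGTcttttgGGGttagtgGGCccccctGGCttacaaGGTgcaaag
Col27a1, exon 7, chr4:63245069-63245122, plus strand: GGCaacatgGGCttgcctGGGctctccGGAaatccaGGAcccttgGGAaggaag
The longest run of units with GGN in the same frame held 337 to 344 units in the 8 chains of types I, III, V and XI, but 216 in Col24a1 and 217 in Col27a1. A run ends at the first unit without GGN in that frame, so that its length need not be that of the whole helix. Inside that run, every whole exon had a multiple of 9 bases in all 10 genes, and the share of exons of 54 bases ran from 21 of 41 in Col1a1 to 24 of 35 in Col24a1 and Col27a1. This exon pattern was not used to choose the genes. The short-run pair, Col24a1 and Col27a1, returns below among the chains with the largest differences.

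The libraries held between 28764779 and 52402410 counts, with TMM factors (the scaling of library sizes that edgeR computed) between 0.967 and 1.04. Levels are given as CPM, counts scaled to a TMM-adjusted library total of 1e+06. Levels of different genes are compared per length, as RPKM, except where sums of markers are given, which are in CPM. Cd34 itself lay between 2489 and 2638 CPM in CD34hi and between 476 and 793 CPM in CD34lo libraries. Of the 5 fibroblast markers looked for (Dcn, Lum, Pdgfra, Col1a2 and Igfbp5), all were present in every library. Their sums were 28378 to 31844 CPM in CD34hi and 31490 to 36415 CPM in CD34lo. These sums hide differences in both directions. Lum, Pdgfra and Col1a2 were higher in CD34lo, Igfbp5 was higher in CD34hi, and Dcn did not pass. Igfbp5 lay at 7481 to 9351 CPM in CD34hi and at 608 to 1054 CPM in CD34lo. Col1a2 is itself among the fibrillar collagen chains compared here. Markers of other cell types were low, and several differed between the groups. The sum of 3 pericyte markers (Rgs5, Mcam and Cspg4, each higher in CD34lo) was 4.45 to 6.08 CPM in CD34hi and 25.4 to 29.7 CPM in CD34lo. The sum of 6 epithelial markers, 2 of which were higher in CD34lo (Acta2 and Itga6), was 34.7 to 41.0 against 68.7 to 69.6 CPM. Most of that difference was Acta2, at 3.23 to 3.24 CPM in CD34hi and 28.1 to 38.1 CPM in CD34lo. Epcam, Krt8, Krt18 and Krt14 did not pass. The sum of 3 endothelial markers, 2 of which were higher in CD34lo (Pecam1 and Cdh5), was 7.82 to 23.9 against 28.7 to 49.7 CPM. The sum of 2 keratinocyte markers (Krtdap and Krt10, both higher in CD34hi) was 14.3 to 19.9 against 3.59 to 7.12 CPM. The 5 macrophage markers summed to 2.01 to 2.95 against 4.13 to 5.40 CPM (Cd68 and Fcgr1 could be tested and did not pass). Fcgr2b, a macrophage gene that the study lists and that is not in this sum, was higher in CD34lo (log2 fold change -6.08 ± 0.53, adjusted p = 5.013e-05, edgeR). The 4 muscle markers summed to 1.27 to 1.57 against 3.50 to 3.88 CPM (Des higher in CD34lo), and the 3 adipocyte markers to 0.179 to 0.635 against 0.482 to 1.81 CPM (Plin1 higher in CD34lo). The part of these cells in the collagen results was not tested.

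Most fibrillar collagen genes were higher in CD34lo fibroblasts. Of the 10 chains, 7 were higher in CD34lo at an adjusted p under 0.05 in edgeR's quasi-likelihood test (Benjamini-Hochberg over all 15219 tested genes), and 0 were higher in CD34hi, as was also the case at an unadjusted p under 0.05 and in limma-voom and DESeq2. Among all tested genes, 35.6% passed in either direction, 18.7% higher in CD34lo and 16.9% higher in CD34hi. The median log2 fold change (CD34hi over CD34lo, so that a negative value means higher in CD34lo) was -0.78 over the 10 chains and -0.0064 over all tested genes. The values of both groups did not overlap for 8 chains, all but Col5a1 and Col11a2, beside 50.1% of all tested genes. In 9 of 10 chains the CD34hi library was the lower of the pair in all 3 pools. The same count was not taken over all tested genes, and for Col5a1 the log2 ratios were only -0.027, -0.043 and -0.057.

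**Figure D1:**
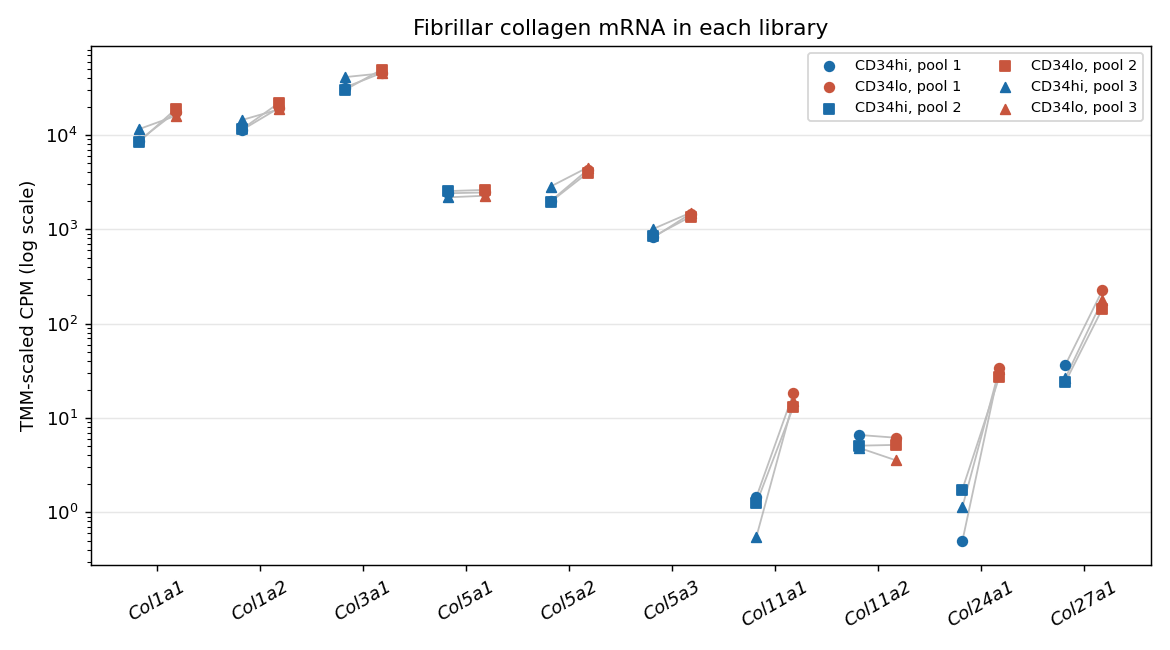
TMM-scaled CPM on a log axis for the 10 fibrillar collagen genes, with 1 point per library (blue CD34hi, red CD34lo, marker shape by pool) and a grey line joining both libraries of a pool. The chains fall into an abundant set (Col1a1 to Col5a3) and a rare set (Col11a1 to Col27a1), and the steepest lines are those of Col24a1, Col11a1 and Col27a1.

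As a share of all counts, the 10 genes together took 5.59%, 5.43% and 7.20% of the CD34hi libraries of pools 1, 2 and 3, and 9.37%, 9.49% and 9.20% of the CD34lo libraries. The means were 6.08% ± 0.976 and 9.36% ± 0.143 (SD, n = 3 each), a difference of -3.28 percentage points with p = 0.1 in an exact two-sided permutation test, which is the smallest p that 3 libraries against 3 can give. The pool 3 CD34hi library stood apart from the other CD34hi libraries: it was the highest of the 3 for Col1a1, Col1a2, Col3a1, Col5a2 and Col5a3 and the lowest for Col5a1, Col11a1 and Col11a2. Without it, 8 of the 10 chains passed, all higher in CD34lo, and the log2 fold changes were -1.02 for Col1a1, -0.80 for Col1a2, -1.10 for Col5a2 and -0.79 for Col5a3. Among all tested genes, 5236 passed without that library. Other values without it are given below where they change a call or a direction. With both libraries of a pool left out, 3 of the 10 chains (Col11a1, Col24a1 and Col27a1) passed without pool 1, 5 without pool 2 and 7 without pool 3. Over all tested genes, the number that passed was 5411 with all libraries, 3468 without pool 1, 3633 without pool 2 and 4817 without pool 3.

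Gene positions below are those of the count table, on GRCm38. Type I collagen, the main fibre of the dermis, tendon and bone, has its chains encoded by Col1a1 (gene 12842, chr11:94936270-94951867, plus strand) and Col1a2 (gene 12843, chr6:4505697-4541543, plus strand). Col1a1 stood at 8683, 8387 and 11504 CPM in the CD34hi libraries of pools 1 to 3 and at 17475, 18856 and 15957 CPM in the CD34lo libraries. The groups did not overlap, and every CD34lo library exceeded every CD34hi library. Its log2 fold change was -0.87 ± 0.19 (SE), or 1.83-fold higher in CD34lo, with an adjusted p = 0.00808 from edgeR. Without the libraries of pool 1 the value was -0.78 (adjusted p = 0.125), and without those of pool 2 it was -0.72 (adjusted p = 0.0677). The call was thus lost in both fits, where 2 libraries a group remain. In these fits 3468 and 3633 of all tested genes passed, beside 5411 with all libraries.

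Col1a2 had 11247, 11459 and 14377 CPM in CD34hi and 19279, 21775 and 18653 CPM in CD34lo. Here too the groups were apart. The log2 fold change was -0.69 ± 0.19, or 1.61-fold higher in CD34lo, with an adjusted p = 0.0201 from edgeR. This was the least stable of the 7 calls, because 5 of the 18 alternatives gave an adjusted p above 0.05: leaving out pool 1 (-0.62, adjusted p = 0.206), pool 2 (-0.56, 0.130), the CD34lo library of pool 1 (-0.68, 0.0536), the CD34hi library of pool 1 (-0.59, 0.0888) or the CD34hi library of pool 2 (-0.63, 0.0993).

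Col3a1 (gene 12825, chr1:45311538-45349706, plus strand) encodes the single chain of type III collagen, which forms fibrils together with type I in distensible tissues. It was the most abundant chain per length in every library. Its level was 31802, 29896 and 41011 CPM in CD34hi and 45367, 49408 and 45009 CPM in CD34lo. All CD34hi libraries lay below all CD34lo libraries, but pool 3 brought them close. The log2 fold change of -0.44 ± 0.21 (95% interval -0.92 to 0.028) had an adjusted p = 0.130 in edgeR and did not pass. It passed in DESeq2 (-0.44, adjusted p = 0.0204) and in edgeR without the CD34hi library of pool 3 (-0.59, adjusted p = 0.0446).

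Type V collagen is laid down with type I and is needed to start its fibrils. Its main chains come from Col5a1 (gene 12831, chr2:27886425-28039510, plus strand) and Col5a2 (gene 12832, chr1:45374331-45503282, minus strand), and a further chain from Col5a3 (gene 53867, chr9:20770050-20815034, minus strand). Among the abundant chains, Col5a1 had the smallest difference between the groups. It stood at 2409, 2539 and 2180 CPM in CD34hi and at 2455, 2615 and 2267 CPM in CD34lo. The groups overlapped over most of their range, and the log2 fold change of -0.042 ± 0.14 (95% interval -0.37 to 0.29) did not pass (adjusted p = 0.849, edgeR). The interval leaves room for a change of up to 0.37 on the log2 scale towards CD34lo. The CD34hi library was the lower of the pair in each pool (log2 ratios of -0.027, -0.043 and -0.057), and the value stayed negative without any 1 pool (-0.024, -0.038 and -0.033). It turned to 0.0055 without the CD34lo library of pool 2 and to 0.022 without the CD34hi library of pool 3, where the pairs are broken.

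Col5a2 had 1983, 1950 and 2837 CPM in CD34hi and 4258, 3959 and 4518 CPM in CD34lo, with no overlap. Its log2 fold change of -0.91 ± 0.19 (adjusted p = 0.00541 from edgeR), 1.88-fold higher in CD34lo, was the largest of the 6 abundant chains. Col5a3 had 819, 840 and 1012 CPM in CD34hi and 1463, 1358 and 1498 CPM in CD34lo. The groups of Col5a3 were apart as well, and the gene was 1.62-fold higher in CD34lo (log2 fold change -0.69 ± 0.14, adjusted p = 0.00532, edgeR). Both calls were lost without pool 1, where 2 libraries a group remain (log2 fold change -0.80, adjusted p = 0.0803 for Col5a2 and -0.60, adjusted p = 0.0929 for Col5a3), and passed in the other 17 alternatives.

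Type XI collagen is the counterpart of type V in cartilage, with chains from Col11a1 (gene 12814, chr3:114030540-114220326, plus strand) and Col11a2 (gene 12815, chr17:34039437-34066242, plus strand). Col11a1 stood at 1.45, 1.24 and 0.551 CPM in CD34hi and at 18.3, 13.2 and 15.1 CPM in CD34lo. These levels rest on 65, 45 and 25 counts in CD34hi and on 992, 367 and 470 counts in CD34lo. Every CD34lo library was far above every CD34hi library, a 14.4-fold difference (log2 fold change -3.85 ± 0.32, adjusted p = 4.125e-05, edgeR). In order of fold change, it ranked 215 of the 15219 genes from the CD34lo end.

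Col11a2 differed from its partner. It had 6.60, 5.08 and 4.81 CPM in CD34hi and 6.16, 5.18 and 3.54 CPM in CD34lo. The groups overlapped, and the log2 fold change of 0.14 ± 0.24 (95% interval -0.41 to 0.69) did not pass (adjusted p = 0.685, edgeR). Without the CD34lo library of pool 3, its sign turned (-0.046).

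Col24a1 (gene 71355, chr3:145292472-145552005, plus strand) and Col27a1 (gene 373864, chr4:63215412-63334991, plus strand) encode the single chains of types XXIV and XXVII. Col24a1 had 0.492, 1.74 and 1.12 CPM in CD34hi, from 22, 63 and 51 counts, and 33.6, 27.3 and 32.9 CPM in CD34lo. The groups were far apart. Its log2 fold change of -4.83 ± 0.36 (adjusted p = 2.207e-05, edgeR), 28.4-fold higher in CD34lo, was the largest of the family and ranked 98 of 15219 from the CD34lo end. Col27a1 had 36.3, 23.9 and 26.3 CPM in CD34hi and 225, 144 and 177 CPM in CD34lo, again without overlap. Its log2 fold change was -2.65 ± 0.22 (adjusted p = 3.425e-05), or 6.30-fold higher in CD34lo, at rank 613. Col11a1, Col24a1 and Col27a1 kept their direction and passed in all 18 alternatives. In CPM, which is not scaled to gene length, the CD34lo levels of Col11a1 and Col24a1 are of the same order as the pericyte and epithelial marker sums given above. This is a rough comparison only. In CD34lo the largest member of the epithelial sum was Acta2. Acta2 and Itga6 were higher in CD34lo, while Epcam, Krt8, Krt18 and Krt14 did not pass. The part of those cells in these 2 results was not tested.

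**Figure D2:**
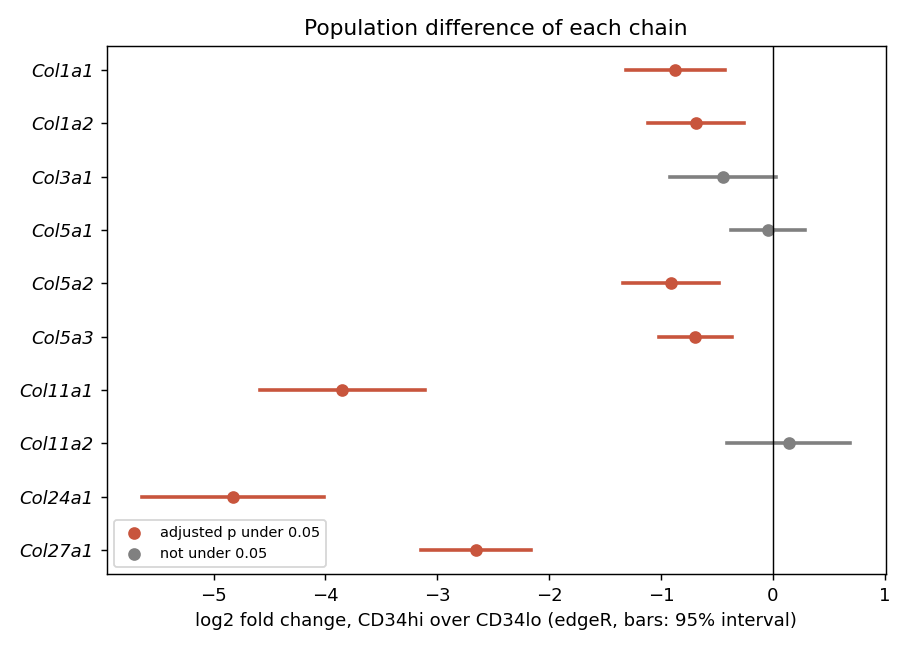
Log2 fold change of each chain, CD34hi over CD34lo, from edgeR, with 95% intervals as bars (red, adjusted p under 0.05, and grey, not under 0.05). Col24a1, Col11a1 and Col27a1 lie far to the CD34lo side at -4.83, -3.85 and -2.65, while the intervals of Col3a1, Col5a1 and Col11a2 include 0.

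Promoters are shown for those 3 chains and, for contrast, for Col5a1, an abundant chain that did not pass. RefSeq promoters of GRCm38.p6 matched 8 of the 10 members, and Col1a1 and Col5a2 had no entry in the table used. Each printed sequence is the 250 bases before the start of the gene, ending at the base next to the gene start in the count table. The capitals mark a CCAAT box (CCAAT) or a GC box (GGGCGG), searched with TATAAA on both strands, so that ATTGG and CCGCCC are the same motifs on the other strand.
Col24a1, chr3:145292222-145292471, plus strand: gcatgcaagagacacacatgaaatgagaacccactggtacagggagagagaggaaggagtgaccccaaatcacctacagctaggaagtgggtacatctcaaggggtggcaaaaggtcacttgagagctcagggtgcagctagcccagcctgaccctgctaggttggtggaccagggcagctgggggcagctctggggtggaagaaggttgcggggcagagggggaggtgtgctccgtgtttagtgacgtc
Col11a1, chr3:114030290-114030539, plus strand: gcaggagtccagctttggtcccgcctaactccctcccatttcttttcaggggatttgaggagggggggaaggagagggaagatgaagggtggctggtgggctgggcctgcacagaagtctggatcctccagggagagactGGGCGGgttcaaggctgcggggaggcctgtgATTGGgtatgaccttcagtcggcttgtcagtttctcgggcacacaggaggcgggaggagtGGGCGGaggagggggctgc
Col27a1, chr4:63215162-63215411, plus strand: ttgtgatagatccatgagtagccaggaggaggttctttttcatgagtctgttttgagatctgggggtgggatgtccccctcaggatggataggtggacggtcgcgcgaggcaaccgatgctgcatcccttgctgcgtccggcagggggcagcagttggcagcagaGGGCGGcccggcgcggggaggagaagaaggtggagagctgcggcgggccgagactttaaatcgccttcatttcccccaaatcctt
Col5a1, chr2:27886175-27886424, plus strand: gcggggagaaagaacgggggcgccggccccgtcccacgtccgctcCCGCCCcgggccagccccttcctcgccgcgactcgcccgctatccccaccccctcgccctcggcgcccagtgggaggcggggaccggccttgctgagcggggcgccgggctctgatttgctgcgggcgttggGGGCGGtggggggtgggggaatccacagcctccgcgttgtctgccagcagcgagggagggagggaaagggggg
None of these motifs is in the 250 bases of Col24a1, whereas Col11a1 has 1 CCAAT and 2 GGGCGG, Col27a1 has 1 GGGCGG and Col5a1 has 2 GGGCGG. Over the 8 members, CCAAT was in 3 (Col1a2, Col5a3 and Col11a1), GGGCGG in 6 and TATAAA in 2 (Col3a1 and Col11a2). The windows of Col1a2, Col5a3 and Col11a2, not printed here, end some bases away from the gene start in the count table. For 6 of the 8 promoters, the bases after the start were found in a transcript of the gene. Of the same windows of all 32851 promoters in the table, 33.8% held CCAAT, 32.7% GGGCGG and 12.4% TATAAA. These are matches of letters only.

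Per length, the order of the chains was the same at the top in both populations and different at the bottom. In CD34hi fibroblasts, mean RPKM fell from Col3a1 (6153) to Col1a2 (2404), Col1a1 (2023), Col5a2 (341), Col5a1 (283), Col5a3 (146), Col27a1 (3.78), Col11a2 (0.980), Col24a1 (0.157) and Col11a1 (0.149). Neighbours whose libraries overlapped were Col1a2 with Col1a1, Col5a2 with Col5a1, and Col24a1 with Col11a1. In CD34lo fibroblasts the order was Col3a1 (8374), Col1a2 (3870), Col1a1 (3701), Col5a2 (642), Col5a1 (291), Col5a3 (237), Col27a1 (23.8), Col24a1 (4.38), Col11a1 (2.14) and Col11a2 (0.885), and the libraries of Col1a2 and Col1a1 alone overlapped. Col11a2 was thus the lowest chain in CD34lo and stood above both Col24a1 and Col11a1 in CD34hi.

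The mixture of chains was also different. Of the summed RPKM of the 10 genes, Col3a1 made up 53.1% to 54.7% in CD34hi and 48.5% to 49.5% in CD34lo libraries. The type I chains together made up 38.5% to 39.6% in CD34hi and 42.9% to 45.1% in CD34lo, so that neither type overlapped between the groups. The type V chains took a like share, 6.83% ± 0.461 and 6.84% ± 0.585 (SD, n = 3 each), with Col5a1 at 2.55% and 1.70% and Col5a2 at 2.99% and 3.76%. Types XXIV and XXVII took 0.0354% ± 0.00978 in CD34hi and 0.166% ± 0.0397 in CD34lo, and type XI took 0.0102% ± 0.00313 and 0.0177% ± 0.00338. Each of these shares except that of type V had p = 0.1 in the exact permutation test, the smallest possible, and type V had p = 1.

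Ratios between chains within a library do not depend on how libraries are scaled to each other, and 12 were compared. They are ratios of RPKM, and their tests come from limma on the log2 ratio of every tested gene to the same denominator, adjusted over all genes. In those fits, 65.8% of genes passed against Col1a2, 73.5% against Col1a1, 74.1% against Col5a2, 32.9% against Col5a1, 21.2% against Col11a2 and 98.7% against Col24a1, so that the share of genes called depended on the denominator. Of the 12 ratios, 6 passed (3 without pool 1 and 3 without pool 2), and in 10 the libraries of both groups did not overlap. Over all genes, the ratio did not overlap for 67.9% against Col1a2, 73.3% against Col1a1, 73.2% against Col5a2, 47% against Col5a1, 30.7% against Col11a2 and 97.6% against Col24a1. For a ratio taken alone, the exact permutation test gave p = 0.1, the smallest possible, in those 10 (0.12 after adjustment over the 12).

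The type I chains stayed close to equal levels per length in both populations. Col1a1 over Col1a2 was 0.843, 0.799 and 0.874 in CD34hi and 0.990, 0.946 and 0.934 in CD34lo. Although the groups did not overlap, the log2 difference was -0.19 ± 0.23 (95% interval -0.69 to 0.31, adjusted p = 0.479, limma). Col3a1 over Col1a1 separated more clearly, at 3.10, 3.02 and 3.02 in CD34hi and 2.20, 2.22 and 2.39 in CD34lo, with a log2 difference of 0.43 ± 0.31. It did not pass without the pool in the fit (adjusted p = 0.207, limma) and passed with the pool as a replicate block (adjusted p = 0.0245). In these fits limma draws the SE towards the variance of all genes' ratios to that denominator (25.2 degrees of freedom for Col1a1, 13.1 for Col1a2). The SE is thus not the spread of these libraries alone, which for Col3a1 over Col1a1 was an SD of 0.0478 in CD34hi and 0.104 in CD34lo. A ratio of abundant chains that did not pass is therefore not shown to be equal in both populations. Col3a1 over Col1a2 was 2.55 ± 0.124 in CD34hi and 2.17 ± 0.0669 in CD34lo (SD, n = 3 each), with an adjusted p = 0.443 from limma.

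The type V pair showed the largest log2 difference among the ratios of abundant chains. Col5a1 over Col5a2 was 0.956, 1.03 and 0.605 in CD34hi and 0.454, 0.520 and 0.395 in CD34lo. Transcripts of Col5a1 and Col5a2 were thus near parity per length in 2 CD34hi libraries, while Col5a2 exceeded Col5a1 in all CD34lo libraries. The log2 difference was 0.89 ± 0.32 (adjusted p = 0.0146, limma). Against Col5a2, 74.1% of all tested genes passed, so that a pass here does not set Col5a1 apart. As single genes, Col5a1 had a log2 fold change of -0.042 and Col5a2 one of -0.91. Col5a3 over Col5a1 was 0.470, 0.457 and 0.641 in CD34hi and 0.823, 0.717 and 0.912 in CD34lo, a log2 difference of -0.66 ± 0.18 (adjusted p = 0.0170). Both lost the call when pool 1 (adjusted p = 0.169 and 0.143), pool 2 (0.0632 and 0.0815), the CD34hi library of pool 1 (0.0680 and 0.0657), the CD34hi library of pool 2 (0.108 and 0.0778) or the CD34lo library of pool 3 (0.0726 and 0.0573) was left out, with no change of sign.

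Col5a1 over Col1a1, a ratio of type V to type I, was 0.155, 0.170 and 0.106 in CD34hi and 0.0787, 0.0777 and 0.0796 in CD34lo. The CD34lo values were nearly identical, and each CD34hi value was higher. The log2 difference was 0.84 ± 0.26 (adjusted p = 0.00546, limma), and it did not pass without pool 1 (0.77, adjusted p = 0.0650) or pool 2 (0.70, adjusted p = 0.129). Against Col1a1, whose own log2 fold change was -0.87, 73.5% of all tested genes passed. Col5a2 over Col1a2 was 0.141 ± 0.0111 and 0.167 ± 0.0238 with overlapping libraries (adjusted p = 0.329), and Col5a3 over Col5a2 was 0.435 ± 0.0421 and 0.369 ± 0.00739 (adjusted p = 0.462). The difference in the second type V to type I ratio lay between -0.70 and 0.22 on the log2 scale.

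Among the rare chains the ratios moved much further. Col11a1 over Col11a2 was 0.170, 0.188 and 0.0884 in CD34hi and 2.29, 1.96 and 3.29 in CD34lo, so that the more abundant chain of type XI was Col11a2 in each CD34hi library and Col11a1 in each CD34lo library. The log2 difference was -4.04 ± 0.41. Col11a1 over Col5a1, a ratio of type XI to type V, was 0.000518 ± 0.000206 and 0.00738 ± 0.00142, a log2 difference of -3.83 ± 0.32 (adjusted p = 1.001e-05, limma). Col11a2 over Col5a1 was 0.00347 ± 0.000571 and 0.00302 ± 0.000713, overlapped and did not pass (adjusted p = 0.542).

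Col27a1 over Col24a1 was 68.9, 12.8 and 21.9 in CD34hi and 6.25, 4.92 and 5.02 in CD34lo. Both chains were higher in CD34lo, Col24a1 by more, and the CD34hi ratios, whose denominator had 22 to 63 counts, scattered widely. The log2 difference was 2.25 ± 0.62 (adjusted p = 0.000304, limma), and it was 1.60 without the CD34hi library of pool 1 (adjusted p = 9.015e-07). It fell just short without pool 3 (2.34, adjusted p = 0.0508). For denominators with few counts, Col11a2 and Col24a1, limma pooled the variance so far that it counted 60900 degrees of freedom for 6 libraries, and its p is too small there. A test from the difference of both genes' edgeR fold changes, added after the data were seen, gave an adjusted p = 0.000374 for Col11a1 over Col11a2 and 0.000697 for Col27a1 over Col24a1, and passed for the same number of ratios, 6. That test combines the SEs of both genes as if they were independent, although both were measured in the same libraries. By that test, 98.2% of all genes passed against Col24a1, 17.4% against Col11a2, 24.4% against Col5a1, 54.8% against Col1a2, 65.9% against Col1a1 and 68.5% against Col5a2.

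**Figure D3:**
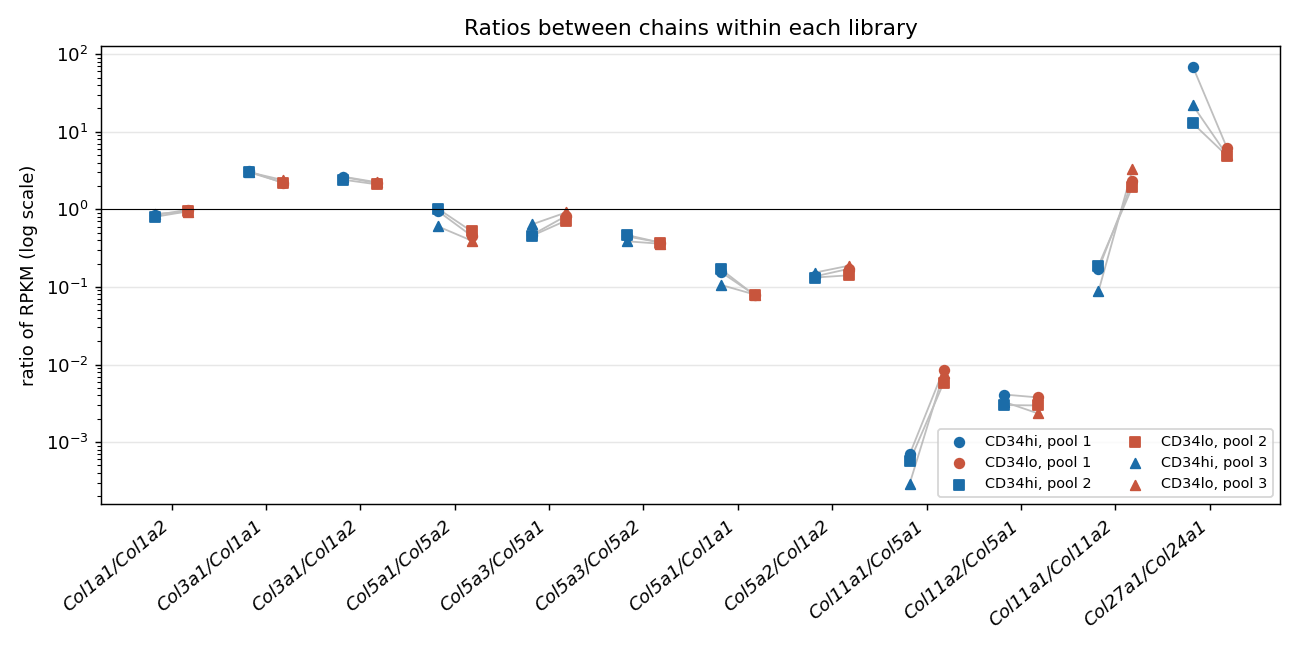
Ratio of RPKM on a log axis for the 12 chain pairs, with 1 point per library (blue CD34hi, red CD34lo, marker shape by pool), a grey line joining both libraries of a pool and a black line at equal levels. Col11a1/Col11a2 crosses the line of equal levels, from 0.149 on average in CD34hi to 2.51 in CD34lo, while the type I pair stays near it in both populations.

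Genes that act on fibrillar collagens were listed by role, 55 in all. Of the 54 that could be tested, 17 were higher in CD34lo, 17 were higher in CD34hi and 20 did not pass, so that 63.0% passed beside 35.6% of all tested genes. Without pool 1, 10 were higher in CD34lo and 14 in CD34hi, beside 1860 and 1608 of all tested genes. With all libraries, the median log2 fold change of the 54 was -0.29.

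Procollagen cleavage removes the end domains. Of 9 tested genes, 3 were higher in CD34lo (Adamts3, Mep1a and Pcolce), 3 were higher in CD34hi (Bmp1, Tll1 and Pcolce2) and 3 did not pass. Pcolce, an enhancer of C-propeptide removal and the most abundant gene of the list per length, had 401 ± 33.7 CPM in CD34hi and 629 ± 143 CPM in CD34lo (log2 fold change -0.65 ± 0.18, adjusted p = 0.0193, edgeR). Its relative Pcolce2 went the other way, with 836 ± 22.6 and 190 ± 64.9 CPM (2.14 ± 0.23, adjusted p = 0.000153). Adamts3, an N-propeptide protease, had 2.34 ± 0.458 and 15.2 ± 3.36 CPM (-2.69 ± 0.23, adjusted p = 4.109e-05). Mep1a, a metalloprotease, had 130, 78 and 56 counts in CD34lo and 0, 0 and 1 in CD34hi, too few for a fold change. Mep1b had 0 counts in all libraries and was not tested. Adamts2, the main N-propeptide protease, was at 651 ± 137 and 450 ± 103 CPM and passed with the replicate block (adjusted p = 0.0291) but not without it (0.0769).

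Folding and export of procollagen takes place in the endoplasmic reticulum. Of 21 genes, 8 were higher in CD34lo, 3 were higher in CD34hi and 10 did not pass. Serpinh1, the collagen chaperone HSP47 and the most abundant gene of the list per length, had 1568 ± 125 CPM in CD34hi and 2347 ± 146 CPM in CD34lo (-0.58 ± 0.14, adjusted p = 0.0121, edgeR). Plod1, a lysyl hydroxylase, had 86.0 ± 12.9 and 190 ± 6.74 CPM (-1.15 ± 0.13, adjusted p = 0.00024). P3h2, a prolyl 3-hydroxylase, had 0.317 ± 0.110 and 1.93 ± 0.451 CPM (-2.60 ± 0.39, adjusted p = 0.000986). Colgalt2, a collagen galactosyltransferase, was higher in CD34hi, at 31.3 ± 3.91 and 11.99 ± 4.61 CPM (1.39 ± 0.27, adjusted p = 0.00401). Its abundant relative Colgalt1 had 134 ± 20.2 and 169 ± 9.46 CPM and passed only with the replicate block (adjusted p = 0.0456, and 0.0909 without it).

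Lysyl oxidases crosslink collagen chains within the fibril. Of the 5 lysyl oxidase genes, 4 were higher in CD34hi, and Lox did not pass. Loxl1, the most abundant per length, had 1421 ± 58.2 CPM in CD34hi and 670 ± 49.8 CPM in CD34lo (1.08 ± 0.13, adjusted p = 0.000311, edgeR). Loxl4 had 110 ± 13.2 and 41.7 ± 20.4 CPM (1.40 ± 0.29, adjusted p = 0.0057), and Loxl2 had 628 ± 56.0 and 436 ± 16.2 CPM (0.53 ± 0.13, adjusted p = 0.011). Lox itself lay on the other side, at 289 ± 98.9 and 435 ± 94.2 CPM (-0.59 ± 0.26). It did not pass without the replicate block (adjusted p = 0.114) and was higher in CD34lo with it (adjusted p = 0.0102).

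The fibril surface carries small proteoglycans, glycoproteins and further collagens, and of the 11 genes listed 4 were higher in CD34lo, 4 were higher in CD34hi and 3 did not pass. Fmod, fibromodulin, which binds type I fibrils, had 0.974 ± 0.491 CPM in CD34hi and 35.1 ± 7.60 CPM in CD34lo (-5.19 ± 0.36, adjusted p = 1.573e-05, edgeR). Bgn, biglycan, had 377 ± 42.6 and 1944 ± 280 CPM (-2.37 ± 0.17, adjusted p = 1.771e-05). Dpt, dermatopontin, was higher in CD34hi, with 5661 ± 329 and 1231 ± 279 CPM (2.20 ± 0.20, adjusted p = 5.778e-05). Dcn, decorin, the most abundant of the list per length, had 7227 ± 559 and 9148 ± 1369 CPM and did not pass (-0.34 ± 0.18, adjusted p = 0.176).

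Receptors for fibrillar collagens also divided. Of 8 genes, 2 were higher in CD34lo, 3 were higher in CD34hi and 3 did not pass. Among the integrin alpha chains, Itga2 (25.2 ± 1.79 and 3.96 ± 1.79 CPM, log2 fold change 2.69 ± 0.28, adjusted p = 0.000128, edgeR) and Itga11 (429 ± 94.9 and 93.3 ± 34.5 CPM, 2.20 ± 0.28, adjusted p = 0.000401) were higher in CD34hi. Itga1 was higher in CD34lo, at 4.05 ± 0.491 and 18.5 ± 2.99 CPM (-2.19 ± 0.18, adjusted p = 3.222e-05). Their shared beta chain, Itgb1, had 655 ± 45.8 and 695 ± 78.0 CPM and did not pass (-0.086 ± 0.14, adjusted p = 0.671). The uptake receptor Mrc2 had 373 ± 28.7 and 486 ± 71.2 CPM and passed only with the replicate block (adjusted p = 0.0418, and 0.0726 without it).

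**Figure D4:**
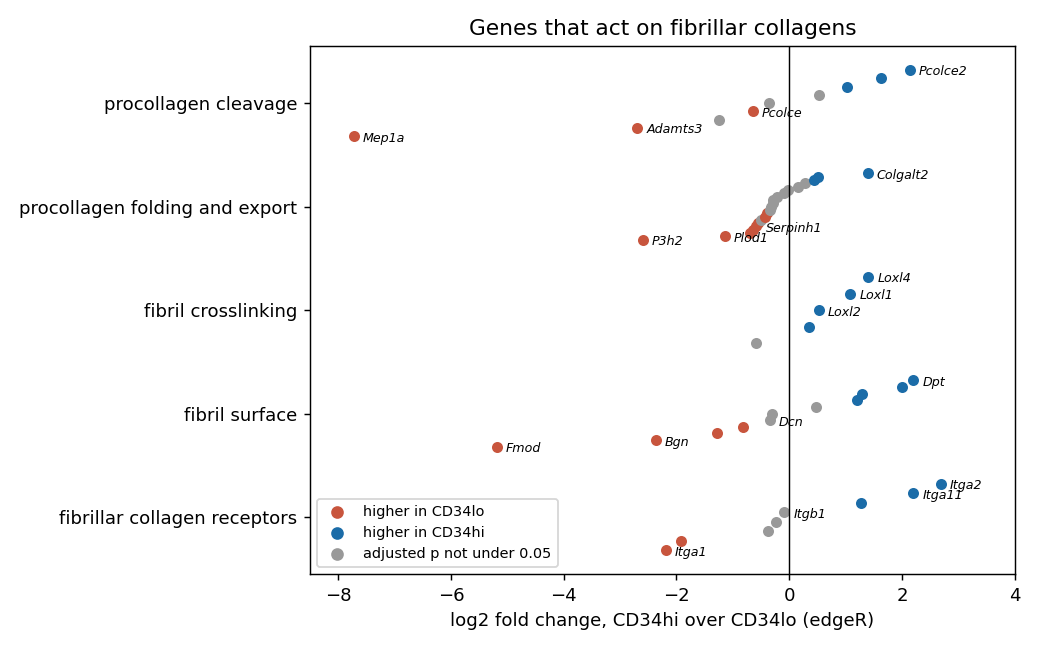
Log2 fold change, CD34hi over CD34lo, of the 54 tested genes that act on fibrillar collagens, 1 point per gene, by role (red higher in CD34lo, blue higher in CD34hi, grey not past an adjusted p of 0.05; named genes are labelled). The lysyl oxidase genes lie to the CD34hi side except Lox, while the other roles spread to both sides, and the outermost point, Mep1a, rests on 1 count in CD34hi.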

How the data were processed

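The authors sorted the cells, made TruSeq RNA v2 libraries from polyA RNA, a kit that does not mark strand, sequenced them on a NextSeq instrument and used Rsubread to align the reads to GRCm38/mm10 and to count them per gene. They deposited whole-number counts per gene, not normalized and not filtered. The annotation and the treatment of reads shared by genes are not given in the sources used here. Without strand, reads of Col5a1 (574970 counts) and of the gene that overlaps it on the other strand (1248 counts) cannot be told apart. Symbols came from a RefSeq gene table, which matched 25275 of 27179 identifiers.

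Counts were filtered with edgeR 4.0.16 in R 4.3.3 (filterByExpr by population, 15219 genes kept), scaled by TMM and fitted with the quasi-likelihood test. Benjamini-Hochberg adjustment ran over all tested genes (threshold 0.05). The study names limma-voom, which was run as an alternative. The SE of a log2 fold change is its size over the square root of F. CPM and RPKM use TMM-scaled library sizes and the gene lengths of the table. Ratios used limma 3.58.1 on log2 CPM with a prior count of 2. A pool's number marks the same mice in both populations. Deviations of same-numbered libraries from their group means had r = 0.279, 0.0844 and 0.243 across genes for pools 1 to 3. Libraries of different pools were not correlated in this way, so that these values alone do not show an effect of the pool. Replicates differed by more than sampling noise (chi-square per degree of freedom at least 23.9).

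Alternatives tried were DESeq2 1.42.0, limma-voom, upper-quartile or RLE scaling, scaling without the 10 chains, no filter, at least 10 counts in every library, a prior count of 0.5, the replicate block, and leaving out each pool or library. Genes named beside the 10 chains are, per role list, the 3 with the largest change among those that passed and the most abundant per length. Bmp1, Tll1, Lox, Mep1b and the genes whose call changed with the block were named after their values were seen. The members and lists were chosen with earlier results of these data known. The result of 1 further marker list is not reported here.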

Additional observations from a re-analysis of the deposited data

How the results depend on the processing

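Col11a1, Col24a1 and Col27a1 passed in all 18 alternatives. The number of chains that passed, all higher in CD34lo, was 7 in edgeR with all libraries and also with the pool as a replicate block (edgeR or limma-voom), and 8 in DESeq2, which added Col3a1 (adjusted p = 0.0204). It lay between 3 and 8 when a pool or a library was left out, and was 3 without pool 1, where 2 libraries a group remain. The number of chains higher in CD34hi was 0 in every alternative. Without a pool or library, related genes that passed numbered 24 to 36, those higher in CD34lo 10 to 20, and those higher in CD34hi 13 to 17. With the replicate block 38 related genes passed in edgeR, 20 higher in CD34lo and 18 higher in CD34hi, and 41 in limma-voom. The calls over all tested genes moved as well, from 5411 with all libraries to 6161 with the block in edgeR and 6418 with it in limma-voom. DESeq2 called 5815 genes, and leaving out a pool or library gave 3468 to 5236. Of the 12 ratios, 6 passed, 7 with the replicate block, and 3 to 6 with a pool or library left out (3 without pool 1 and 3 without pool 2). The difference in the share of counts lay between -3.92 and -2.89 percentage points, and its paired exact test over 3 pools gave p = 0.25, the smallest possible.

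Signs turned for Col5a1 without the CD34lo library of pool 2 (0.0055) and without the CD34hi library of pool 3 (0.022), in a range of -0.090 to 0.022 over the left-out pools and libraries. They also turned for Col11a2 without the CD34lo library of pool 3 (-0.046), in a range of -0.046 to 0.36. The cause was not tested. Of 180 values for single chains, 166 had the same direction and the same call, as did 142 of 156 for single ratios. Upper-quartile scaling moved the median of all genes to -0.059. The block changed no call among the 10 chains, in edgeR or in limma-voom. Col11a1 and Col24a1 rest on 22 to 65 counts in CD34hi libraries, where counting error limits their fold.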
